A study of Mus musculus with 22 samples.

Results

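The genes examined were 10 small nucleolar RNA (snoRNA) host genes of the mouse, Snhg1, Snhg3, Snhg4, Snhg5, Snhg6, Snhg8, Snhg12, Gas5, Zfas1 and Epb41l4aos. They were chosen by name, and they account for 11 of the 55335 genes in the deposited table because the symbol Snhg4 belongs to 2 genes. The longer of these is called Snhg4 read-through here. It is annotated as protein-coding, starts beside the host gene and runs on into Matr3, and its values are given apart from those of Snhg4.

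Poly(A) RNA of early mouse embryos of the B6D2F1 cross was sequenced with Smart-seq2, a full-length cDNA method for small amounts of RNA, after knockdown (KD) of the histone variant H2A.Z. Zygotes had received about 10 pl of a mix of small interfering RNAs (siRNAs) at 20 µM, and each library pooled 15 embryos. The treatment of the control embryos of these libraries was not stated. The stages were 2-cell embryos, morulae and blastocysts, for which the times of observation were 44, 78 and 94 h after injection of human chorionic gonadotropin (hCG).

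There were 22 libraries in 6 groups. Each stage had 4 control libraries, and KD had 3 libraries of 2-cell embryos, 3 of morulae and 4 of blastocysts. The deposited values are FPKM without read counts, so the depth of each library is unknown in reads. The number of genes with an FPKM of at least 1 went from 10143 in a KD morula library to 12090 in a control 2-cell library.

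H2A.Z is encoded by H2afz and H2afv. In control 2-cell embryos H2afz had FPKM values of 1244, 1236, 905 and 1178, and in KD 2-cell embryos 415, 139 and 112. In morulae the control libraries had 1158, 1336, 1511 and 1421 and the KD libraries 30.3, 25.7 and 29.0. Blastocysts had 2656, 2431, 1945 and 2055 in control and 64.2, 67.2, 53.2 and 57.6 in KD. The log2 fold change of H2afz was -5.41 in morulae (limma, adjusted p = 9.72e-08) and -5.19 in blastocysts (adjusted p = 3.63e-08). In 2-cell embryos it was -2.53 with an adjusted p of 0.544, so it was not past the threshold there although every KD library lay below every control library. H2afv had FPKM values of 111, 118, 96.8 and 113 in control and 97.6, 85.4 and 83.7 in KD 2-cell embryos (log2 fold change -0.23, adjusted p = 0.839). It fell in KD morulae by a log2 fold change of -2.94 (adjusted p = 2.92e-06), from 92.5 to 113 in control to 9.90 to 12.9 in KD, and in KD blastocysts by -1.86 (adjusted p = 7.98e-05), from 49.9 to 63.5 in control to 10.6 to 19.9 in KD.

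Marker genes written down in advance were read in every library. The FPKM of 5 markers of the 2-cell stage summed to 161 to 223 in control 2-cell embryos, 1.54 to 6.31 in control morulae and 0.113 to 0.899 in control blastocysts. KD libraries had 167 to 206, 6.12 to 9.91 and 2.95 to 14.2. Tdpoz3 was upregulated in KD morulae (log2 fold change 0.82), 1 of 3 tested, beside 4.22% of all genes tested. In each control morula library 1 or 2 of the 5 markers reached 1 FPKM, and in each KD morula library 2 or 3. KD values therefore helped to bring markers into this test, which favours a rise. In blastocysts 1 of the 5 markers was tested, Zfp352, and it was upregulated in KD (1.57), beside 16.7% of all genes tested. Zfp352 was at 0.0826 to 0.772 FPKM in control blastocysts, so its KD values alone led to its being tested. The 4 oocyte markers summed to 729 to 989.7, 4.62 to 9.95 and 1.71 to 2.17 in control 2-cell embryos, morulae and blastocysts. Their sums in KD were 779 to 1031, 7.94 to 10.7 and 1.94 to 4.76. The trophectoderm marker Krt18 had FPKM values of 47.8 to 80.9 in control morulae and of 646 to 992 in control against 329 to 461 in KD blastocysts, where it was downregulated (log2 fold change -1.02). Krt8 (-0.49), Gata3 (-0.29) and Cdx2 (0.05) were not past the threshold in KD blastocysts, and their groups overlapped. The 4 inner cell mass markers summed to 119.8 to 165 in control against 32.6 to 50.2 in KD morulae, where Nanog was downregulated (-2.23), and to 109.9 to 219 against 135 to 274 in blastocysts. KD and control libraries of morulae and of blastocysts therefore differed in some markers of stage and lineage. In KD 2-cell embryos limma called 0 marker genes, and it called 0 of all 12160 genes tested there. A difference of a host gene between KD and control can come from a different stage or mix of cells as well as from a direct effect, and these were not told apart. Cumulus and granulosa markers summed to at most 3.41, sperm markers to at most 1.24 and fibroblast markers to at most 0.0662 in any library. Of 3 blood markers, Hbb-bs was at 0 in all 22 libraries and Ptprc at 0 in all morula libraries. Hba-a1 had 1.16 to 3.63 in control against 4.23 to 7.77 in KD morulae, and it was upregulated in KD morulae (1.20) and KD blastocysts (0.80).

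A snoRNA host gene is transcribed as a spliced RNA whose introns are cut into snoRNAs, which guide chemical changes of ribosomal and other RNAs. The spliced exons of such genes mostly encode no protein of known use and are often degraded in the cytoplasm by nonsense-mediated decay, and their transcripts commonly start with a run of pyrimidines (5′ terminal oligopyrimidine, TOP), as do the mRNAs of ribosomal proteins. Gas5 stands for growth arrest specific 5. The reads come from poly(A) RNA, so the values of the host genes are levels of spliced or partly spliced host transcripts and not of mature snoRNAs.

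In the GENCODE annotation of the mouse genome (GRCm38), Gas5 (ENSMUSG00000053332.13) lies at chr1:161034422-161038539 on the plus strand with 25 transcripts and 10 snoRNA genes inside its span. Snhg1 (ENSMUSG00000108414.1) lies at chr19:8723475-8726443, plus strand, with 8 snoRNA genes, and Zfas1 (ENSMUSG00000074578.14) at chr2:167062934-167065862, plus strand, with 3. Snhg12 (ENSMUSG00000086290.9; chr4:132308623-132311024, plus strand; 5 snoRNA genes) and Snhg3 (ENSMUSG00000085241.7; chr4:132348014-132353686, minus strand; 2 snoRNA genes) lie near each other on chromosome 4. Snhg5 (ENSMUSG00000097195.9) is at chr9:88521050-88522929, minus strand, with 2 snoRNA genes. Snhg6 (ENSMUSG00000098234.7) is at chr1:9941959-9944118, minus strand, with 1, and Snhg8 (ENSMUSG00000104960.1) at chr3:123507552-123508404, minus strand, with 1. Epb41l4aos (ENSMUSG00000087590.2; chr18:33794892-33795986) has 1 snoRNA gene. Snhg4 (ENSMUSG00000117869.1; chr18:35553371-35558316) has 2, and Snhg4 read-through (ENSMUSG00000117694.1; chr18:35553404-35587708) spans the same 2, all on the plus strand.

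**Figure D1:**
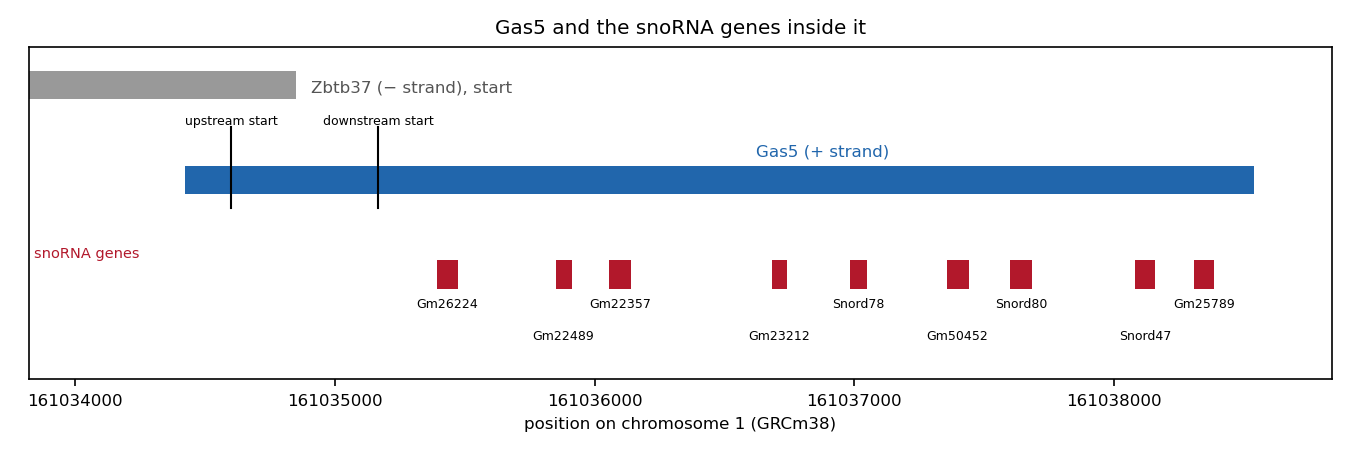
Map of Gas5 on chromosome 1 (GRCm38, position in bases), with the gene span, the annotated starts used for its promoters, the start of Zbtb37 on the opposite strand and the snoRNA genes inside the span; Snord80 is annotated by 2 overlapping genes and drawn once.

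All 11 genes had an FPKM above 0 in each of the 22 libraries. Gas5 had the highest mean FPKM of the 11 in each of the 6 groups. In 2-cell control embryos it measured 48.8, 47.1, 42.4 and 51.7, a mean of 47.5 ± 3.89 (SD, n = 4), and overlapped Snhg3 at 36.5, 34.3, 36.9 and 48.9. Control morulae had Gas5 values of 181, 221, 249 and 218 (217 ± 28.1, n = 4), each above every value of Snhg5, the next in order at 66.4 ± 4.15. Control blastocysts had 320.0, 234, 217 and 228 (249.9 ± 47.3, n = 4), each above every value of Snhg3 at 106 ± 15.2. The lowest mean belonged to Epb41l4aos at the 2-cell stage (2.44 ± 1.75 in control, n = 4) and to Snhg12 in control morulae (6.64 ± 0.736) and control blastocysts (4.80 ± 0.808).

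Snhg1 followed Gas5 and Snhg5 in control morulae at 45.8 ± 7.84 and overlapped Snhg6 at 40.9 ± 8.02, which overlapped Snhg4 read-through at 39.1 ± 3.37. In control blastocysts Snhg1 at 62.9 ± 7.04 again overlapped Snhg6 at 53.6 ± 11.1, and Snhg6 overlapped Snhg5 at 48.7 ± 8.64. Zfas1 and Epb41l4aos overlapped in control morulae at 22.7 ± 6.04 and 20.2 ± 4.15 and in control blastocysts at 28.4 ± 4.14 and 25.1 ± 3.37. Summed over the 11 genes, FPKM was 181 to 209 in control 2-cell embryos, 473 to 563 in control morulae and 572 to 755 in control blastocysts. KD libraries had sums of 190.3 to 216, 451 to 495 and 549.8 to 747. Gas5 supplied between 22.0% and 46.9% of the sum in a library.

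**Figure D2:**
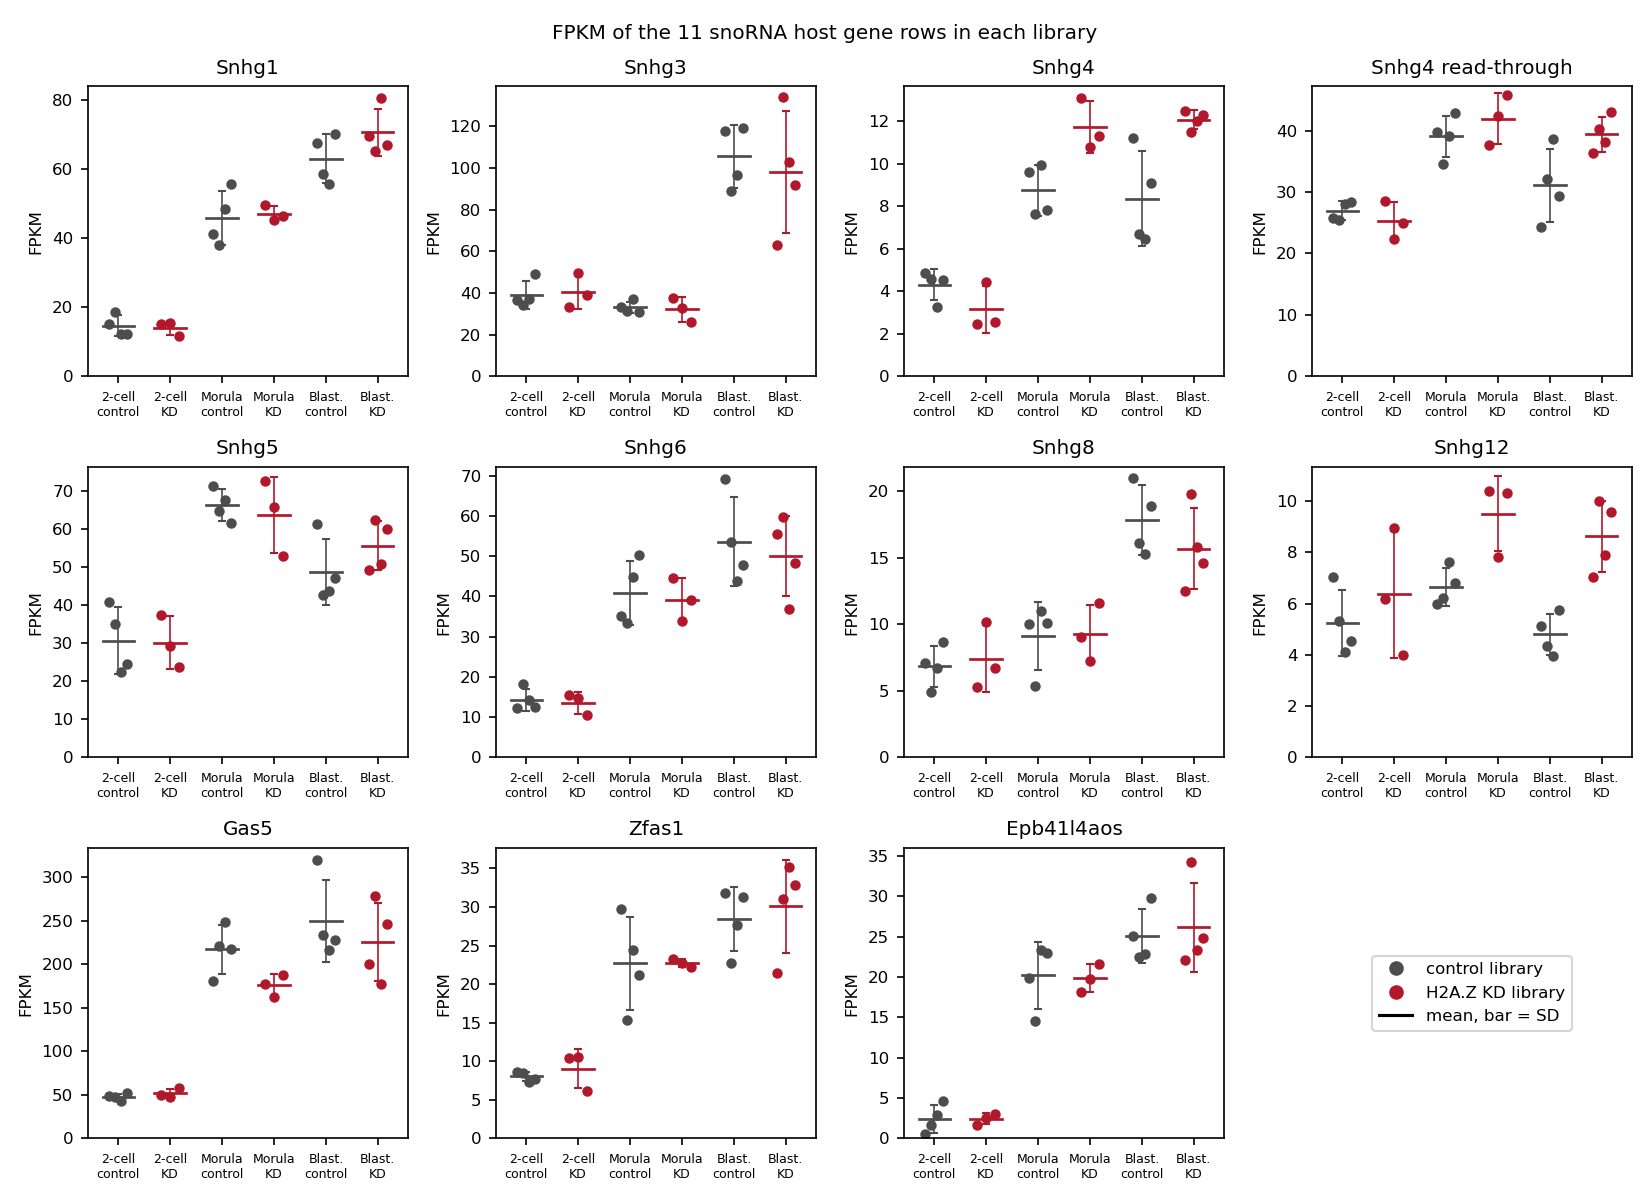
FPKM of the 11 genes (vertical axes, linear) in each of the 22 libraries by stage and treatment; points are libraries, lines are group means and bars are SD. Gas5 lies between 42.4 and 58.0 at the 2-cell stage and between 162 and 320.0 in morulae and blastocysts.

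The stages of control embryos were compared to describe the normal course of the host genes. The 12 control libraries were fitted together with limma, and the same libraries are the controls of the KD comparisons, so the comparisons are not independent of one another. Each value is a share of the RNA of 15 embryos, so it can rise when other RNA falls. Amounts of RNA per cell or per embryo were not measured. The replicates were not stated to come from separate litters, and the p-values measure the spread between libraries. Smart-seq2 keeps no strand, so genes that overlap on opposite strands cannot be told apart.

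From 2-cell embryos to morulae, 8 of the 11 genes rose and 1 fell at an adjusted p under the threshold. Of all 14686 genes tested, 40.6% rose and 40.4% fell. The median log2 fold change of the 11 was 0.96, against 0.03 over all genes tested. All morula values lay above all 2-cell values for 8 of the 11 genes and below for 0, against 39.8% and 35.1% of all genes tested. Epb41l4aos went from 0.570, 1.64, 2.91 and 4.64 in 2-cell embryos to 19.9, 14.5, 23.4 and 23.0 in morulae, a log2 fold change of 2.64 ± 0.304 (SE, adjusted p = 1.14e-06). Gas5 rose by 2.00 ± 0.203 (adjusted p = 2.95e-07). Snhg1 went from 15.2, 18.6, 12.3 and 12.3 to 41.2, 38.1, 48.5 and 55.6, a log2 fold change of 1.43 ± 0.212 (adjusted p = 1.74e-05). Snhg6 rose by 1.29 ± 0.23 (adjusted p = 0.000105), from between 12.2 and 18.1 to between 33.4 and 50.2. Zfas1 rose by 1.20 ± 0.197 (adjusted p = 4.73e-05), from between 7.35 and 8.56 to between 15.4 and 29.8.

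Snhg5 went from 40.7, 35.1, 22.3 and 24.6 in 2-cell embryos to 71.4, 64.7, 67.7 and 61.7 in morulae (log2 fold change 0.96 ± 0.234, adjusted p = 0.00154). Snhg4 went from 4.86, 4.60, 3.24 and 4.53 to 9.62, 7.62, 9.94 and 7.81 (0.73 ± 0.217, adjusted p = 0.00606). For Snhg8 (0.20, adjusted p = 0.416) and Snhg12 (0.16, adjusted p = 0.479) the difference was not past the threshold. The 7 genes from Epb41l4aos to Snhg4 were past it whichever library was left out and with each other pseudocount, filter, scaling and moderation tried. With an absolute log2 fold change over 1 required as well, 5 of the 9 calls were kept, without Snhg5, Snhg4, Snhg4 read-through and Snhg3.

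The remaining pair of calls changed with single libraries and with other settings. Snhg4 read-through rose by 0.35 ± 0.137 (adjusted p = 0.0278), from 25.8, 25.4, 28.1 and 28.4 in 2-cell embryos to 39.7, 34.6, 39.1 and 42.8 in morulae. Without 2-cell control replicate 1, 2, 4 or 5 its adjusted p was 0.0511, 0.0672, 0.0639 or 0.0516, and without morula control replicate 7 or 8 it was 0.0531 or 0.0831. With upper-quartile scaling its log2 fold change was 0.27 (adjusted p = 0.0687). Snhg3 fell by -0.39 ± 0.171 (adjusted p = 0.0486) with overlapping groups, 36.5, 34.3, 36.9 and 48.9 in 2-cell embryos and 33.5, 31.4, 36.9 and 31.0 in morulae. Its adjusted p was 0.0581 or 0.118 without 2-cell control replicate 1 or 5, and 0.115, 0.118 or 0.0884 without morula control replicate 1, 2 or 8. Leaving out blastocyst control replicate 4, 5 or 6, which share the fit, gave Snhg3 adjusted p-values of 0.0635, 0.0625 and 0.0694. On FPKM as deposited, where the median of all genes moved from 0.03 to 0.14, the log2 fold change of Snhg3 was -0.22 (adjusted p = 0.182), and without the filter on low FPKM its adjusted p was 0.0704.

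From morulae to blastocysts, 2 of the 11 genes rose and 0 fell, and 3 of the 11 had an unadjusted p under 0.05 in limma, against 52.0% of all genes tested. Of all 14686 genes tested, 24.4% rose and 21.7% fell. The median log2 fold change was 0.30 for the 11 genes and 0.00 for all genes tested. Snhg3 went from between 31.0 and 36.9 in morulae to 118, 88.8, 96.8 and 119 in blastocysts, a log2 fold change of 1.62 ± 0.171 (adjusted p = 2.5e-06). Snhg8 went from a mean of 9.13 ± 2.54 (n = 4) to 21.0, 16.1, 15.3 and 18.9, a log2 fold change of 0.91 ± 0.226 (adjusted p = 0.00391). Both were past the threshold whichever library was left out, and Snhg3 alone had an absolute log2 fold change over 1.

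Groups that do not overlap were higher in blastocysts for 24.3% and lower for 21.3% of all genes tested. Snhg5 (log2 fold change -0.46, adjusted p = 0.125) and Snhg12 (-0.41, adjusted p = 0.117) were lower in every blastocyst than in every morula library and were not past the threshold. Without blastocyst control replicate 1 the value of Snhg5 was -0.64 (adjusted p = 0.0338). Gas5 (0.18, adjusted p = 0.522) and Snhg1 (0.45, adjusted p = 0.102) were not past it either. Snhg4 read-through had a log2 fold change of -0.35 (adjusted p = 0.0515). Its adjusted p was 0.0461, 0.0496 and 0.0461 without 2-cell control replicate 1, 2 and 4, 0.0439 and 0.0495 without morula control replicate 1 and 2, and 0.0338 without blastocyst control replicate 5.

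**Figure D3:**
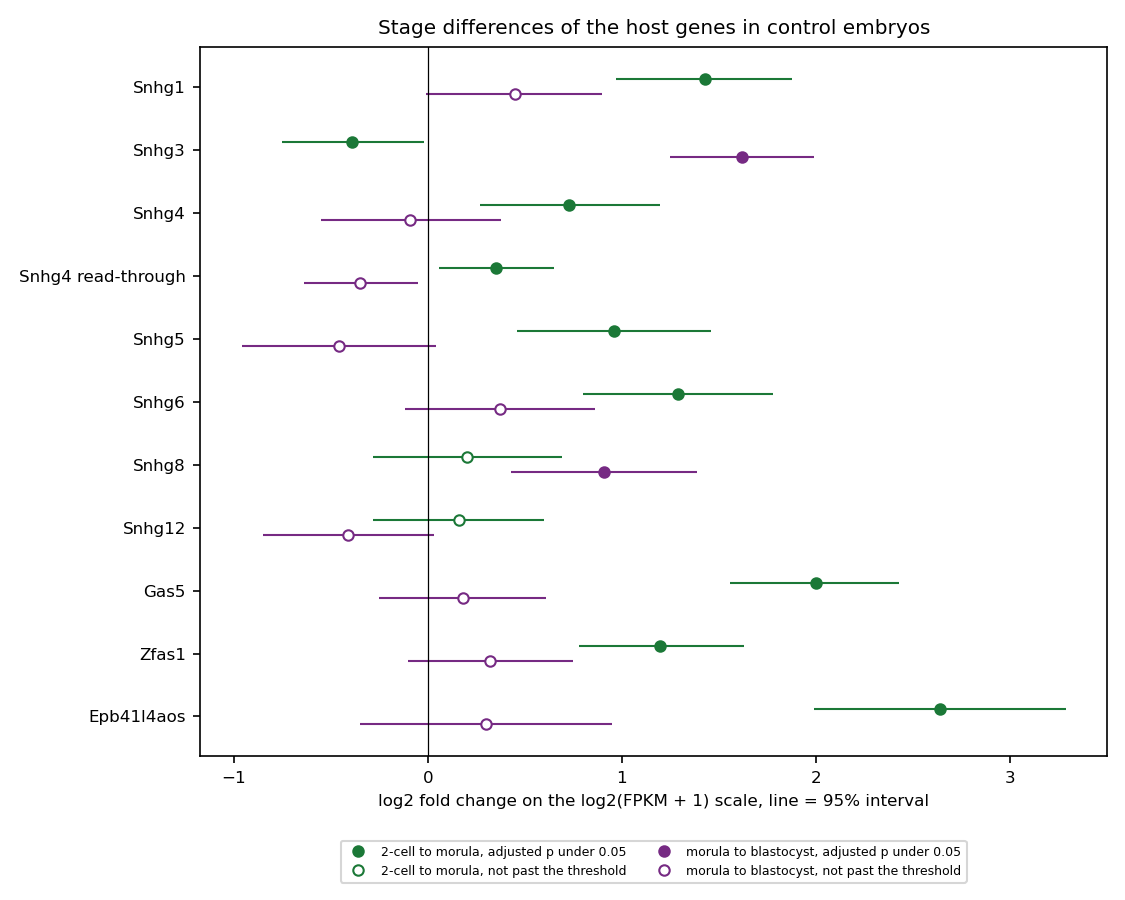
Log2 fold changes of the 11 genes between stages of control embryos (horizontal axis, scale of log2 of FPKM plus 1) with 95% intervals as lines; filled points have an adjusted p under 0.05. Epb41l4aos at 2.64 and Gas5 at 2.00 lie farthest right from 2-cell embryos to morulae, and Snhg3 at 1.62 from morulae to blastocysts; on FPKM as deposited the fall of Snhg3 to morulae was not past the threshold.

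KD and control embryos of each stage were compared to ask whether host gene levels changed when H2A.Z was depleted. In 2-cell embryos limma called 0 of the 11 genes and 0 of all 12160 genes tested (0%) in either direction. It did not call H2afz, the knocked-down gene, either, so a count of 0 at this stage does not show that levels were unchanged. At an unadjusted p under 0.05 there were 0 of the 11 and 5.76% of all genes tested. The log2 fold changes of the 11 went from -0.33 for Snhg4 (adjusted p = 0.839) to 0.26 for Snhg12 (adjusted p = 0.873), with a median of 0.11 against 0.00 over all genes tested. KD and control values overlapped for all 11 genes, while 2.65% of all genes tested were higher and 4.13% lower in every KD library. Gas5 measured 49.4, 47.5 and 58.0 in the KD libraries, and its log2 fold change was 0.18 (adjusted p = 0.866). Snhg12 measured 5.25 ± 1.29 (n = 4) in control and 6.36 ± 2.47 (n = 3) in KD, and Snhg4 measured 2.46, 4.42 and 2.55 in KD.

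In morulae limma called 0 of the 11 genes, while 4.22% of all 10989 genes tested were upregulated and 9.05% downregulated. At an unadjusted p under 0.05 there were 2 of the 11 genes, against 30.5% of all genes tested. These were Snhg4 and Snhg12, and both were higher in every KD than in every control library, as were 6.70% of all genes tested, while 22.9% were lower. Snhg4 measured 9.62, 7.62, 9.94 and 7.81 in control and 13.1, 10.8 and 11.3 in KD, a log2 fold change of 0.51 ± 0.151 (95% interval 0.17 to 0.84, adjusted p = 0.0516). Snhg12 measured 5.97, 6.20, 7.62 and 6.80 in control and 10.4, 7.81 and 10.3 in KD, a log2 fold change of 0.56 ± 0.177 (95% interval 0.17 to 0.96, adjusted p = 0.0609). Libraries with replicate numbers 1 and 2 were then set against those with higher numbers as a batch in the fit. The labels name no batch, and this split was set in advance from earlier work on these data. Across genes, deviations of control and KD morula libraries from their group means correlated at 0.0943 to 0.346 within the split and at -0.278 to -0.0944 across it. These values are not independent of one another, since deviations in a group sum to 0. The split came from these same data, so they do not test it. The log2 fold change was then 0.52 for Snhg4 (adjusted p = 0.0316) and 0.61 for Snhg12 (adjusted p = 0.0195), so both calls depended on this choice, and they also changed with upper-quartile scaling. Gas5 measured 178, 162 and 188 in KD, a mean of 176 ± 13.0 (n = 3), with a log2 fold change of -0.17 (adjusted p = 0.543). The other 8 lay between 0.06 and 0.22. The median was 0.15 for the 11 genes and 0.02 for all genes tested. Of all calls in morulae 31.8% were upregulated, and 15.3% on FPKM as deposited, so the balance of directions over all genes depended on the scaling.

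The shares over all genes in morulae moved with single libraries and with the batch term, while the count for the 11 genes stayed at 0 with each library left out. The reported fit had 464 genes up and 995 down. Without morula control replicate 2, 7 or 8 there were 294, 259 or 267 up and 747, 651 or 587 down, and without KD replicate 1 or 2 there were 164 or 140 up and 415 or 412 down. With the batch term 777 were up and 1261 down, and without the filter on low FPKM 129 and 283 of 32900.

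In blastocysts limma called 1 of the 11 genes, which was upregulated, and 16.7% of all 11828 genes tested were upregulated and 19.8% downregulated. The gene was Snhg12, at 5.14, 4.34, 3.95 and 5.75 in control (4.80 ± 0.808, n = 4) and 7.02, 10.0, 7.91 and 9.55 in KD (8.63 ± 1.41, n = 4). Its log2 fold change was 0.74 ± 0.193 (95% interval 0.32 to 1.16, adjusted p = 0.0107), with each KD library above each control library. Over the other settings, left-out libraries included, it lay between 0.63 and 0.84 with adjusted p-values of 0.00922 to 0.0374. It did not reach an absolute log2 fold change of 1, nor did any other of the 11 genes in a KD comparison.

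At an unadjusted p under 0.05 there were 3 of the 11 genes in blastocysts and 46.0% of all genes tested. Snhg4 measured 11.2, 6.67, 6.47 and 9.08 in control and between 11.5 and 12.5 in KD, with no overlap, a log2 fold change of 0.52 ± 0.213 and an adjusted p of 0.0758. Without blastocyst control replicate 1 its log2 fold change was 0.70 (adjusted p = 0.0128). With replicate 1 against the others as a batch its adjusted p was 0.0421, and with replicate number as a block 0.0488. Of all genes tested 14.6% were higher and 20.0% lower in every KD library. Snhg4 read-through had a log2 fold change of 0.36 (adjusted p = 0.0942). Gas5 measured 200.4, 279, 178 and 246 in KD (226 ± 45.6, n = 4; log2 fold change -0.14, adjusted p = 0.659), and Snhg3 measured 63.2, 134, 103 and 91.9 (-0.14, adjusted p = 0.661). The median log2 fold change of the 11 was 0.08, against 0.00 over all genes tested.

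The KD effect in blastocysts minus that in morulae was tested as an interaction in limma. It was past the threshold for 0 of the 11 genes and for 11.7% of all 12727 genes tested, and at an unadjusted p under 0.05 for 0 of the 11 and 27.3% of all. For Snhg12 it was 0.13 (adjusted p = 0.785) and for Snhg4 -0.03 (adjusted p = 0.961), so a KD effect on either that differs between morulae and blastocysts was not shown. The lowest value was -0.37 for Snhg8. The all-gene count was 691 up and 802 down in the reported fit, 413 and 545 without morula KD replicate 1, 440 and 562 without morula KD replicate 2, and 399 and 584 of 37157 without the filter on low FPKM, with 0 of the 11 genes in each.

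**Figure D4:**
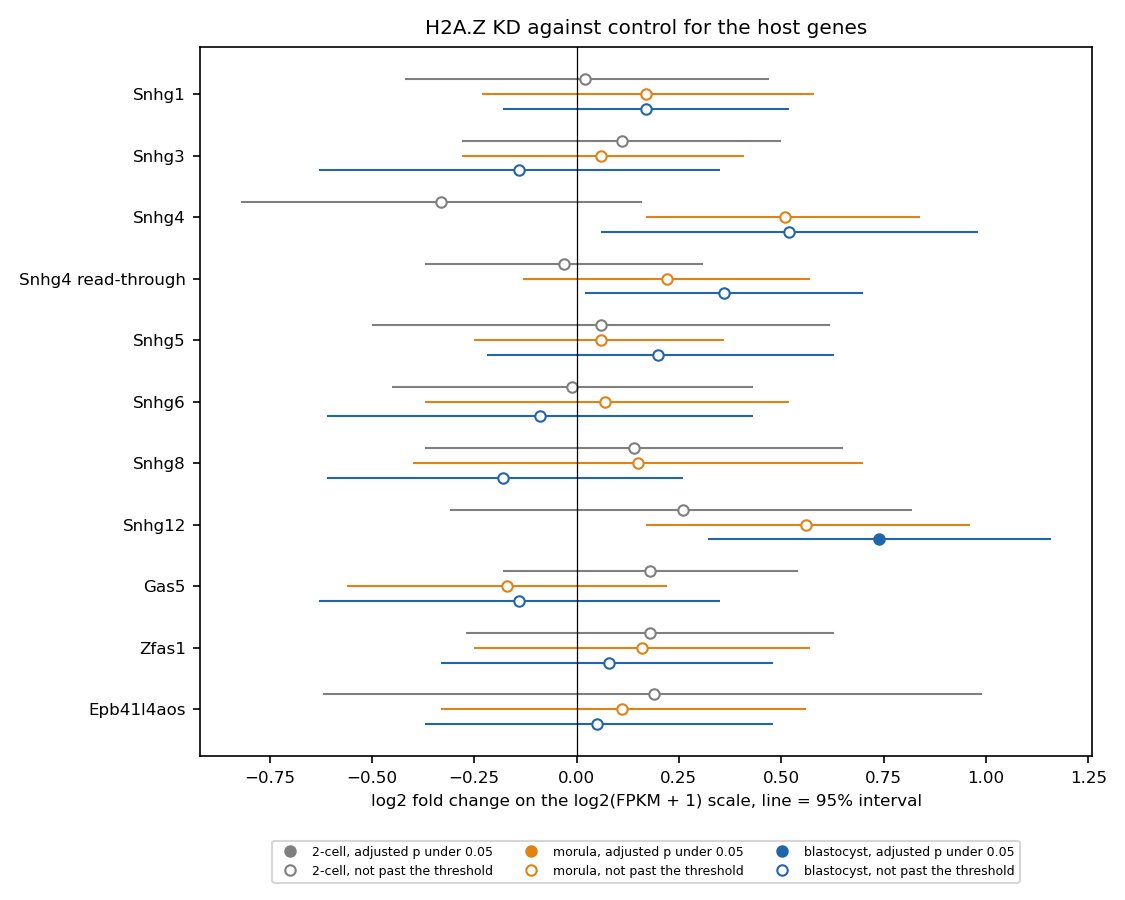
Log2 fold changes of the 11 genes in KD against control embryos of each stage (horizontal axis, scale of log2 of FPKM plus 1) with 95% intervals as lines; filled points have an adjusted p under 0.05. Snhg12 in blastocysts at 0.74 is the filled point, and Snhg12 and Snhg4 in morulae lie at 0.56 and 0.51.

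The 35 snoRNA genes inside the host genes were read as a list. They are 60 to 205 nt long and most overlap exons of annotated host transcripts, so their reads cannot be told apart from those of the host, and a pair of them that share a position, as the 2 genes named Snord80 in Gas5 do, share reads as well. From 2-cell embryos to morulae 31 of 34 tested rose and 0 fell, beside 40.6% and 40.4% of all genes tested, with a median log2 fold change of 1.69. Among 2-cell libraries alone 20 of the 35 passed the filter on low FPKM. The rest of the 34 therefore passed it only with morula or blastocyst libraries, which favours a rise, so the count is not evidence for these. From morulae to blastocysts 0 rose and 3 fell, beside 24.4% and 21.7%. Snord80 inside Gas5 rose to morulae by 2.91 and Snord78, also inside Gas5, by 2.51. In KD morulae 1 of 33 was upregulated, beside 4.22% of all genes tested. It was Gm25894 inside Snhg1 (1.19, adjusted p = 0.0091, and 0.0657 without the filter on low FPKM). In KD blastocysts 5 of 32 were upregulated and 1 downregulated, beside 16.7% and 19.8% of all genes tested, so the upregulated share was close to that of all genes. Snord78 was the one that fell, from 105, 82.0, 74.8 and 73.5 in control to 42.9, 57.6, 44.2 and 51.0 in KD (-0.75 ± 0.2, adjusted p = 0.0113, and 0.0519 without the filter on low FPKM), while Gas5 as a whole was not past the threshold. The largest of the 5 upregulated were a snoRNA gene inside Snhg4 that the table names Mir1949 (ENSMUSG00000088059.1, 1.01), Snora73b inside Snhg3 (0.89, adjusted p = 0.011, and 0.0551 without that filter) and Gm25878 inside Zfas1 (0.83). The other 2 upregulated, Gm23201 and Snord99, were past the threshold in 1 and 3 of the 8 fits with a library left out. In KD 2-cell embryos limma called 0 of 20, beside 0% of all 12160 genes tested.

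Genes that share a start region or sequence with a host gene were read beside it. Rcc1 lies on the strand of Snhg3 and overlaps it, with starts 81 bp apart. Rcc1 fell from morulae to blastocysts by -1.69 (adjusted p = 8.84e-05) where Snhg3 rose by 1.62. In KD blastocysts Rcc1 was upregulated (1.09, adjusted p = 0.00456), at 10.1, 8.19, 23.1 and 14.3 against 3.72, 6.44, 6.97 and 5.74, and Snhg3 was at -0.14. Slc3a2 starts 106 bp from Snhg1 on the opposite strand. It rose to morulae by 1.57, as Snhg1 did by 1.43, fell to blastocysts by -1.43 and was upregulated in KD blastocysts (0.82, adjusted p = 0.00225), where Snhg1 was at 0.17 (adjusted p = 0.436). Zbtb37 overlaps the start of Gas5 on the opposite strand and Znfx1 that of Zfas1. From 2-cell embryos to morulae they fell by -1.61 and -1.45, while Gas5 rose by 2.00 and Zfas1 by 1.20. Of 8 neighbours tested 6 rose and 2 fell in that comparison, beside 40.6% and 40.4% of all genes, and in KD blastocysts 4 of 6 were upregulated. Rcc1 and Slc3a2 were past the threshold whichever library was left out, and Gm17300 and the miRNA gene Mir1949 (ENSMUSG00000105743.1) in 5 and 6 of 8 such fits. This miRNA gene overlaps the snoRNA gene of the same name inside Snhg4, and the reads of the pair cannot be told apart. Over all genes tested 16.7% were upregulated in KD blastocysts.

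Other snoRNA host genes were counted for comparison with the 11. Of 10 further host genes in the table, the other Snhg genes and Dancr, 9 were tested. To morulae 0 of these rose and 6 fell, beside 40.6% and 40.4% of all genes tested, with a median of -1.27 against 0.96 for the 11 genes. The largest falls were those of Snhg10 (-2.46), Snhg20 (-2.22) and Dancr (-1.73). From morulae to blastocysts 4 rose and 0 fell (24.4% and 21.7% of all genes). KD called 1 up in morulae, where 4.22% of all genes were up. It was Snhg9 (1.02, adjusted p = 0.0112), whose adjusted p was 0.0528 without morula KD replicate 2. In KD blastocysts 2 were up, Snhg9 and Snhg15, which were past the threshold in 3 and 2 of the 8 fits with a library left out, and 1 was down, beside 16.7% and 19.8% of all genes. The fall of Snhg18 (-0.80, adjusted p = 0.00491) was past the threshold whichever library was left out. Among protein-coding snoRNA hosts 98 of 213 rose and 70 fell to morulae, beside 40.6% and 40.4% of all genes tested. In KD morulae 7 of 188 were up and 6 down (4.22% and 9.05% of all genes), and in KD blastocysts 41 of 197 were up and 17 down (16.7% and 19.8% of all genes). Of these Ppan (1.84), Pabpc4 (1.15) and Nop53 (1.11) had the largest upregulation in KD blastocysts.

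Among 97 coding genes of the TOP class, mostly ribosomal protein genes, 96 rose and 1 fell from 2-cell embryos to morulae, beside 40.6% and 40.4% of all genes tested, with a median log2 fold change of 2.29 against 0.96 for the host genes. From morulae to blastocysts 12 rose and 9 fell, beside 24.4% and 21.7%. KD called 1 up and 1 down of 96 in morulae (median 0.26), beside 4.22% up and 9.05% down over all genes tested. In KD blastocysts 9 of 96 were up and 1 down (median 0.13), beside 16.7% and 19.8%. A positive log2 fold change was found for 88 of the 96 in KD morulae and for 77 in KD blastocysts. The median over all genes tested was 0.02 and 0.00, and their share of positive values was not counted. On FPKM as deposited the median over all genes in KD morulae was -0.09, so counts of positive values can depend on the scaling. Whether the TOP genes differ from all genes was not tested. Of 6 regulators of TOP mRNAs 5 were tested in KD morulae and in KD blastocysts, where 2 and 3 were up and 0 down, beside 4.22% and 16.7% up over all genes. Larp4 was upregulated in KD blastocysts (2.42, adjusted p = 2.37e-05) at 58.6, 43.8, 59.7 and 39.0 against 10.1, 5.21, 8.92 and 10.7. Eif4ebp1 was upregulated in KD morulae (0.67, adjusted p = 0.0113) and KD blastocysts (0.95, adjusted p = 0.00211), and the interaction was 0.24 (adjusted p = 0.542). With replicate number as a block its adjusted p in morulae was 0.0562. The others were Larp1 in KD blastocysts (0.70, adjusted p = 0.0218, and 0.0698 without the filter on low FPKM) and Rps6kb1 in KD morulae (0.76, adjusted p = 0.0494), which was past the threshold in 1 of 7 fits with a library left out. KD blastocysts had 4 of 8 snoRNP core genes up and 0 down, 1 of 9 snoRNP assembly genes up and 1 down, and 2 of 8 tested genes of nonsense-mediated decay up and 0 down, beside 16.7% up and 19.8% down over all genes tested. KD morulae had 0 of 8 snoRNP core genes called, and 0 up and 2 down of 9 snoRNP assembly genes. Of 10 genes of nonsense-mediated decay 1 was up and 0 down, beside 4.22% up and 9.05% down over all genes tested. With libraries left out in turn, the blastocyst calls of Nop58, Snu13, Smg8 and Upf1 were past the threshold in 5, 2, 4 and 7 of 8 fits, and the morula calls of Ruvbl1, Shq1, Upf2, Rps29 and Rpl10l in 3, 2, 2, 1 and 3 of 7. In KD 2-cell embryos limma called 0 genes of each list, beside 0% of all 12160 genes tested.

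Genes outside the 11 were ranked by how closely they followed the median profile of the 11 over the 22 libraries. Among 15686 candidates the median root mean square difference was 0.89 on the log2 scale. The nearest were Gm49383 (0.13), Rpl36al (0.14), Gm4742 (0.16), Rpl37rt (0.17), Rpl36a-ps3 (0.17), Gm8186 (0.18), Gm16415 (0.18), Rpl21-ps12 (0.19), Gm10039 (0.19) and Gm10076 (0.19). Several are processed pseudogenes of ribosomal protein genes, whose reads can come from the parent gene. The nearest annotated as non-coding were Gm10076 (0.19), Gm2245 (0.23), Gm27529 (0.25), 4930533K18Rik (0.28) and Gm40988 (0.28). Of the 11 genes themselves, Zfas1 (0.21) and Snhg6 (0.27) were nearest to the median profile and Epb41l4aos (0.86), Snhg3 (0.66) and Snhg12 (0.61) farthest from it.

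Promoter sequences were read for 7 of the 10 symbols from the RefSeq promoter set (GRCm38.p6), with 2 starts for Gas5. TATA occurred in the 50 bases before the start in 62.5% of the 8 promoters, against 9.08% of 32841 promoters and 10.7% of those of the TOP coding genes. A stretch of at least 5 pyrimidines counted from a C, whatever base comes before it, with that C within 10 bases of the start, occurred in 62.5% of the 8, against 30.7% of all and 53.6% of the TOP coding genes. Both occurred in 50% of the 8, 2.66% of all and 8.33% of the TOP coding genes. The motifs and windows were chosen after the promoters had been read, and a match is a description of the sequence. The sequences are printed to show how the TATA and the pyrimidines sit around each start. Each holds the 45 bases before the start and the 30 from the start on, in the direction of transcription, with the TATA and the pyrimidines counted from the C in capitals. The starts are chr19:8723487 plus strand for Snhg1, chr4:132353686 minus for Snhg3, chr9:88522897 minus for Snhg5, chr3:123508336 minus for Snhg8 and chr4:132308678 plus for Snhg12. Those of Gas5 are chr1:161034601 and chr1:161035166, plus strand, and that of Zfas1 is chr2:167062934, plus strand.
Snhg1: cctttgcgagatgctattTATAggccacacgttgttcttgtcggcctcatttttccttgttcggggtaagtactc
Snhg3: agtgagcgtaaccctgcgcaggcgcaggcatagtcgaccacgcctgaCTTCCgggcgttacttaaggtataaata
Snhg5: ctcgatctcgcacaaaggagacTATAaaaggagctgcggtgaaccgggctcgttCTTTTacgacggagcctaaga
Snhg8: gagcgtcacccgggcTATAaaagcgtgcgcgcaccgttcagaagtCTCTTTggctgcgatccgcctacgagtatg
Snhg12: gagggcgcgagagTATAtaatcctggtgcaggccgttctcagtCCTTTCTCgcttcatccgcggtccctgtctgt
Gas5 upstream start: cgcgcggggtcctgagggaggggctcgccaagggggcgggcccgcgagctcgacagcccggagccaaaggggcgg
Gas5 downstream start: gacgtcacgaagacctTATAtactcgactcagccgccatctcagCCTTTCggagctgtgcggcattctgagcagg
Zfas1: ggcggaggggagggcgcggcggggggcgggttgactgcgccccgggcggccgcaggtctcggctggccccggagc

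The downstream start of Gas5 has TATA 29 bases before it and 6 pyrimidines counted from a C, and the upstream start has neither. The deposited values are sums per gene and do not separate transcripts from these starts. Snhg12, the gene upregulated in KD blastocysts, has TATA 32 bases before its start and 8 pyrimidines counted from a C, which follow a T. Promoters of Snhg4, Snhg6 and Epb41l4aos were not read, so the shares given for the host gene promoters leave these genes out. Whether the promoter set has entries for them was not established.

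Box C/D snoRNAs carry a box C, here matched as TGATGA, near the 5′ end and a box D, CTGA, near the 3′ end. Both were found within 15 bases of the ends in 40% of the 35 snoRNA genes inside the host genes, against 19.2% of 1558 snoRNA and scaRNA genes of the table. To show the boxes, sequences of the GENCODE M21 annotation are given for Snord50a and Snord50b inside Snhg5 (chr9:88521529-88521600 and chr9:88521797-88521868, minus strand), Snord99 inside Snhg12 (chr4:132310691-132310764, plus strand) and Snord80 inside Gas5 (chr1:161037601-161037681, plus strand), with the boxes in capitals.
Snord50a: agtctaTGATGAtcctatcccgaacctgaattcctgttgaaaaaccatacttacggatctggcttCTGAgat
Snord50b: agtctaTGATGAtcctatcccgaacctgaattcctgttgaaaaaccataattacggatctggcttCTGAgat
Snord99: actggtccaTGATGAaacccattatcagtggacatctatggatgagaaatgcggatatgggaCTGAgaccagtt
Snord80: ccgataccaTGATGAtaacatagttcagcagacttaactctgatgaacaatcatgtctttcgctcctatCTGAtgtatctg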

How the data were processed

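The authors aligned reads to the mouse genome (mm10, GRCm38) with STAR and deposited FPKM from StringTie 2.1.4. The annotation release was not stated, and 55154 of the 55335 genes matched the reference annotation by identifier. No value column lacked a sample.

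Within each comparison FPKM were divided by a scale factor per library, the median ratio to the geometric mean over genes above 0 in all its libraries. Factors were 0.943 to 1.09 for 2-cell embryos, 0.912 to 1.17 for morulae, 0.893 to 1.12 for blastocysts, 0.853 to 1.16 for the control stages and 0.874 to 1.16 for the interaction. A pseudocount of 1 was added before log2. Genes that reached 1 FPKM in 3 or more libraries were tested with limma 3.58.1 in R 4.3.3 (lmFit, eBayes with trend), with Benjamini-Hochberg adjustment over all genes tested and a threshold of 0.05. Fold changes refer to log2 of FPKM plus 1 and are smaller than ratios of FPKM where values are low. Figures were drawn with matplotlib 3.10.9. The limma fit of KD against control at each stage was tested on simulated data with independent noise in each library and no batch. The other steps were not simulated.

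Relative depth was estimated from values of at most 0.5 FPKM as 0.769 to 0.878 in 2-cell embryos, 1.02 to 1.41 in morulae and 0.958 to 1.12 in blastocysts. No pair of libraries was identical, and the highest correlation between 2 libraries was 0.994.

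Host genes, lists, markers and tests were set before the data were examined, but with earlier results of these data known. Every host gene is named. Genes of the shorter lists may be named, and of the coding snoRNA hosts and TOP coding genes the 3 with the largest change in each direction among called genes whose groups do not overlap. Lists were described by counts and medians and not tested as sets. Motifs and windows in promoters were chosen after the promoters of the host genes had been read. Pseudogenes were left out of the ranking of non-coding genes.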

Additional observations from a re-analysis of the deposited data

Results flagged for a closer look

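Gas5 in blastocyst control replicate 1 had an FPKM of 320.0, far from the other 3 libraries at 234, 217 and 228. Its gap to the nearest divided by the range of the group was 0.833, which is above Dixon's critical value at 95% for 4 libraries. Of 44 groups of 4 libraries tested this was the only one past it, and chance gives about 1 in 20. Without this library Gas5 was not past the threshold in KD blastocysts either.

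None of the 11 host genes had a KD effect that differed between morulae and blastocysts in the interaction test in limma, where 0 had an unadjusted p under 0.05. It was past the threshold for 7 up and 10 down of 203 coding snoRNA hosts and for 1 of 96 TOP coding genes, beside 11.7% of all genes tested. In the shorter lists, trophectoderm markers left aside, it was past the threshold for 6 genes, given as the effect in blastocysts minus that in morulae. The snoRNA gene Gm25894 inside Snhg1 had -1.26 (adjusted p = 0.0295), with an FPKM of 5.29 or less in every library. Its adjusted p was 0.0513, 0.062, 0.0604 and 0.0555 without morula control replicate 8 and morula KD replicates 1, 2 and 6, and 0.0623 and 0.0571 without blastocyst control replicates 1 and 6. Rcc1, which overlaps Snhg3, had 1.27 (adjusted p = 0.0476), and it was past the threshold in 4 of 15 fits with a library left out, with adjusted p-values of 0.0246 to 0.0946. Snhg18 had -0.90 (adjusted p = 0.0142) and Larp4 1.72 (adjusted p = 0.00277). H2afv, which encodes H2A.Z, had 1.04 (adjusted p = 0.0208), so its fall was larger in morulae. Without morula KD replicate 6 that adjusted p was 0.0503. The inner cell mass marker Nanog had 2.49 (adjusted p = 0.00203), and lineage markers are not covered in full here.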

How the results depend on the processing

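Each result was recomputed with 1 choice changed at a time. For the counts of host genes called in the 6 comparisons, 93 recomputed counts were within 1.5 times the reported one, 6 were higher and 1 was lower. An added threshold on the fold change was tallied for the KD comparisons alone. With it 5 host genes in place of 9 were called from 2-cell embryos to morulae and 1 in place of 2 from morulae to blastocysts. These counts take no account of the direction of a change.

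The count of host genes called in KD morulae, 0 of 11, was 2 with upper-quartile scaling (Snhg4 0.54, adjusted p = 0.0409; Snhg12 0.60, adjusted p = 0.0469), 1 with eBayes without trend (Snhg4, adjusted p = 0.0496) and 2 with low and high replicate numbers as batches (Snhg4 0.52, adjusted p = 0.0316; Snhg12 0.61, adjusted p = 0.0195). Over all settings the adjusted p lay between 0.0316 and 0.163 for Snhg4 and between 0.0195 and 0.17 for Snhg12, and the count was 0 with each library left out.

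In KD blastocysts the count of 1 was 2 with these batches (Snhg4, adjusted p = 0.0421), 0 with an added threshold of an absolute log2 fold change of 1, and 1 to 2 with each library left out, the 2 without blastocyst control replicate 1. The adjusted p of Snhg4 lay between 0.0128 and 0.208 over all settings. Snhg12 was called in all 15 other fits.

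The labels number the replicates but name no pairs. Across genes, the deviations of same-numbered KD and control libraries from their group means correlated at 0.0147 to 0.214 in 2-cell embryos, 0.0943 and 0.181 in morulae and -0.11 to 0.353 in blastocysts, so the rule of over 0.1 for all was not met and they were not treated as pairs. The batch split followed these values in morulae, at 0.0943 to 0.346 within it and -0.278 to -0.0944 across it, and mostly in 2-cell embryos, at -0.0211 to 0.214 and -0.237 to 0.0102. In blastocysts, where it sets replicate 1 against the others, it did not, since control replicate 1 correlated at 0.0859 with KD replicate 1 and at 0.401 with KD replicate 4. The split came from earlier work on these data, so such values do not test it. With replicate number as a block, 2 host genes were called in KD blastocysts (Snhg12, and Snhg4 at 0.52 with an adjusted p of 0.0488) and 0 in KD morulae.

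From 2-cell embryos to morulae 7 to 9 host genes were called with each library left out, and from morulae to blastocysts 2 to 3. Snhg4 read-through was past the threshold from morulae to blastocysts in 10 of 17 settings, and Snhg1 (0.46, adjusted p = 0.0373) on FPKM as deposited. In the interaction and in KD 2-cell embryos the count was 0 in every setting. FPKM as deposited moved the median of all genes to 0.11 in the interaction, from -0.01.

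Without the filter on low FPKM, Gm25894 and Snhg9 in KD morulae had adjusted p-values of 0.0657 and 0.0665, and Snora73b and Snord78 in KD blastocysts 0.0551 and 0.0519.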
